A study of Mus musculus with 4 samples.

Results

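The genes described here are the nuclear-encoded subunits of the mitochondrial respiratory chain in the mouse heart, that is the genes of complexes I to IV and of the ATP synthase, complex V, that are transcribed in the nucleus. They were chosen by symbol (Nduf, Sdh, Uqcr, Cyc1, Cox4 to Cox8 and Atp5 names), and a mean normalized read count of at least 4 over the 4 libraries was required. Of 85 symbols that matched, 83 were kept, among 13725 genes that passed the same minimum and 23238 distinct symbols listed. By role, 36 of the 83 belong to complex I, 4 to complex II, 9 to complex III, 17 to complex IV and 15 to complex V. Atp5s and Atp5sl share the naming but are not subunits, and they are counted among the 83 members but not among the 81 subunits. The 2 symbols not kept were the isoforms Cox7b2, with 2, 1, 0 and 2 reads, and Cox8c, with 0 reads in each library, which allows at most 3 reads.

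The study compared hearts of male CDF1 mice in a normal control group, E(−)T(−), a normal exercise group, E(+)T(−), a cancer control group, E(−)T(+), and a cancer exercise group, E(+)T(+). Exercise was running on a motorized treadmill at high intensity, and cancer was induced by CT26 murine colorectal cancer cells given through the tail vein, so that tumor cells spread through the body and were not placed in the heart. All groups share the strain, and the labels give an age of postnatal day 28 for every sample, which in the methods is the age at purchase, so the hearts were taken from older mice. Each group has 1 heart library. The study describes a single representative mouse per group for its skeletal muscle libraries and a similar analysis for the heart, without giving the number of hearts. Differences between groups have no replicate check and no p-value.

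Electrons from NADH enter the chain at complex I and those from succinate at complex II, pass through complex III and cytochrome c to complex IV, and the proton gradient that complexes I, III and IV build drives ATP synthesis by complex V. The heart depends on this chain for nearly all of its ATP, and its mitochondria carry muscle-type isoforms of several complex IV subunits. A few subunits of complexes I, III, IV and V are encoded in mitochondrial DNA and are not analysed here. The transcription factors NRF1 and NRF2 (the ETS factor GABP), the estrogen-related receptors (ERR) and their coactivator PGC-1α are known to act on many of the nuclear genes.

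Sequences in front of 4 members that the comparisons turn on are shown, from RefSeq on GRCm38.p6, each ending at the base before an annotated start, with motif matches in capitals. Sdhd (chr9:50603850-50603959, minus strand) was the member with the largest fall, and only 110 bases are shown because a divergent gene lies beyond them. The paralogs Cox7a1 (chr7:30183921-30184170, plus strand) and Cox7a2 (chr9:79759854-79760103, minus strand) moved apart with cancer. The Cox7a2 stretch belongs to a start inside the annotated gene, which spans chr9:79755241-79771422. Atp5l (chr9:44920743-44920992, minus strand) had the largest rise in E(−)T(+) vs. E(−)T(−).
Sdhd: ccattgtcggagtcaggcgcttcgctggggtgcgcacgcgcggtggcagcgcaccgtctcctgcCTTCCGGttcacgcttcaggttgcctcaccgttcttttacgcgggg
Cox7a1: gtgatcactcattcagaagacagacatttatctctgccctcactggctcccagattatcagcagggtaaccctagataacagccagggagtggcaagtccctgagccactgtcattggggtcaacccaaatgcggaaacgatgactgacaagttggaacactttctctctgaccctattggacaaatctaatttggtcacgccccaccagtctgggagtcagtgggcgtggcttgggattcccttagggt
Cox7a2: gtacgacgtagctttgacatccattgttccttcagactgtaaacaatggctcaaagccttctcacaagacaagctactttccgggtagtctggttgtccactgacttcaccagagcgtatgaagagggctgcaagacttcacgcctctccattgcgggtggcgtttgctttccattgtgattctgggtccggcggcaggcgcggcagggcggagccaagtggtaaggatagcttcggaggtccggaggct
Atp5l: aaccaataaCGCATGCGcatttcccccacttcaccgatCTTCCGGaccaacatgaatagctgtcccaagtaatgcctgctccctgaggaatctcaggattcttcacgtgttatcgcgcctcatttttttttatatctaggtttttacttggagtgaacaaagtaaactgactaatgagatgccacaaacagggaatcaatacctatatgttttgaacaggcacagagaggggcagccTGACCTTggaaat

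In the Sdhd stretch the capitals mark an ETS core (CCGGAAG, read here on the other strand) that begins 46 bases before the start. The longer Sdhd window used for the shares below also holds an ERR core (AAGGTCA), outside the printed bases. In that of Atp5l they mark an NRF1 core (GCATGCG) that matches on both strands with overlap, at 241 and 240 bases before the start, an ETS core at 212 bases and an ERR core (AAGGTCA) at 13 bases. Neither Cox7a stretch holds any of the cores searched, which also included YY1 (AAGATGG) and CREB (TGACGTC).

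Of the 81 subunits, 67 had a promoter entry, a window of 300 bases searched on both strands. The NRF1 core was present in 11 of the 67 (16.4%), against 4.01% of all promoters in the table, 6.83% of those that passed the minimum and 8.21% for genes whose mean was at least 1000, called highly expressed below. For the ETS core the shares were 23.9% of subunits, 9.93% of all promoters and 19.4% of highly expressed genes, and for the ERR core 11.9%, 5.38% and 4.95%. The YY1 core was in 16.4% of subunit promoters against 9.68% of highly expressed genes, and the CREB core in 8.96% against 7.58%. The NRF1, ETS and ERR cores were each present in 4 or 5 of the 14 complex V promoters, and in 1, 3 and 0 of the 13 complex IV promoters. In the 32 complex I promoters they were present in 3, 4 and 3 (9.4%, 12.5% and 9.4%). For NRF1 this lies near the share of highly expressed genes, and for ETS below it. A match is a description of the letters and not evidence of binding.

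Depth ran from 6595412 reads in the normal control library to 11545934 in the cancer exercise library. The QuantSeq method reads mRNA only at its 3′ end, and long and short transcripts therefore give like numbers of reads. Globin genes held 37.3% of the E(+)T(+) reads and 7.86% to 8.76% in the other libraries. Hbb-b1 and Hbb-bs had near-equal reads in each library, 791328 and 805160 in E(+)T(+). So did Hbb-b2 and Hbb-bt, with 241040 and 254961 there. The same reads may be counted under both names of a pair. The globin shares and the library totals would then be overstated, most in E(+)T(+). Whole reads were recovered from the deposited values, and the ranges in brackets are 95% intervals (Clopper-Pearson) of the read ratio, which cover counting error only. All fold changes are differences of the deposited log2(normalized read count + 1) values, which already carry the authors' normalization. All 12 cardiomyocyte markers were expressed, with a summed normalized read count of 506028 to 554305 over the libraries. In bulk tissue, fewer cells of a type and less RNA per cell cannot be told apart.

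The 81 subunits together took 8.18%, 8.39%, 7.72% and 6.35% of all reads in E(−)T(−), E(+)T(−), E(−)T(+) and E(+)T(+), the order used throughout. Without the globin genes the shares were 8.96%, 9.16%, 8.37% and 10.1%, so that E(+)T(+) had the lowest share of the 4 with globins counted and the highest without them. Within the subunit reads, the division among the complexes varied little. Complex I took 27.5% to 29.1%, complex II 3.96% to 4.14%, complex III 11.5% to 12.4%, complex IV 29.7% to 31.2% and complex V 24.0% to 25.6%.

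The members spanned a wide range of levels. The highest was Cox6a2, the muscle-type isoform of subunit 6a of cytochrome c oxidase, with normalized read counts of 54500, 54994, 57448 and 65626. Next came Atp5g3, a c ring gene of the ATP synthase, with 38591, 40397, 37666 and 36232. At the other end lay Cox6b2, Cox4i2, Sdhd and Ndufab1, the subunits with a mean under 1000. Sdhd, a membrane anchor of complex II, had a mean of 296 normalized reads, although its complex holds Sdhb, an iron-sulfur subunit, at 16486 to 23706. Reads per gene also depend on how well each 3′ end was annotated and primed, so levels between genes are compared with that limit.

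For exercise without cancer, E(+)T(−) vs. E(−)T(−), the subunits hardly moved. Of the 83 members 65 were higher and 18 lower, with a median log2 fold change of 0.06, where 50.1% of all genes were higher, and 49 to 66 were higher under the 5 scalings compared. Highly expressed genes leaned the same way, with 64.1% higher and a median of 0.05. None was at least 1.5-fold higher and 1 was at least 1.5-fold lower, against 11.1% of all genes higher and 12.1% lower by that size, 23.2% in either direction. Of the 1179 highly expressed genes, 4.58% changed by that size. The member past this size was Atp5s, which is not a subunit. It had 160.5, 96.7, 146 and 142 normalized reads and lay at −0.72 (−1.11 to −0.36). The middle 50% of the subunits spanned 0.10 on the log2 scale, against 0.20 for highly expressed genes.

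All 5 complexes had medians between 0.02 and 0.07 in this comparison. The largest rise was that of Sdhd, by 0.32 (0.12 to 0.53). Ndufb7, an accessory subunit of complex I, was higher by 0.24 (0.16 to 0.32), Ndufs7, a core subunit with an iron-sulfur cluster, by 0.20 (0.13 to 0.28) and Cox4i1, the common isoform of subunit 4 of complex IV, by 0.20 (0.17 to 0.23). The lowest subunits, Cox6b2, Ndufs4, Ndufs1 and Sdha, lay at −0.12 to −0.11, and for Cox6b2, on 22 and 26 reads, the interval ran from −0.98 to 0.79.

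**Figure D1:**
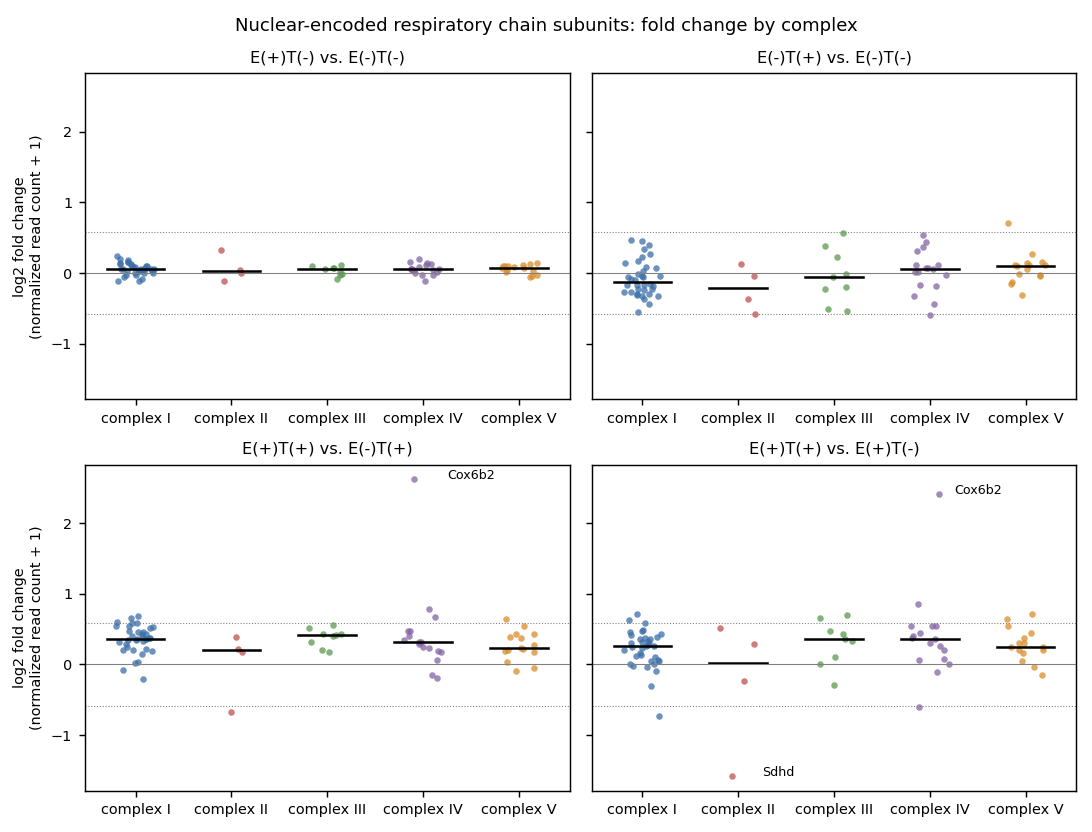
Log2 fold change of each of the 81 subunits in the 4 comparisons, grouped by complex, with 1 point per gene, a bar at the median of each complex and dotted lines at 1.5-fold in either direction. Points cluster around 0 in E(+)T(−) vs. E(−)T(−) and spread to both sides of it in E(−)T(+) vs. E(−)T(−), and they lie mostly above 0 in the 2 comparisons of E(+)T(+), which turn below 0 when reads are scaled to library totals; Cox6b2 and Sdhd stand apart.

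For cancer without exercise, E(−)T(+) vs. E(−)T(−), the members divided. Of the 83, 35 were higher and 48 lower, with a median of −0.04, where 48.9% of all genes were higher, and 16 to 38 members were higher under the other scalings. Highly expressed genes lay above the members, with 59.8% higher and a median of 0.14. At least 1.5-fold, 1 was higher and 2 were lower, against 22.6% of all genes higher and 23.1% lower by that size, 45.7% in either direction. Of the highly expressed genes, 34.1% changed by that size. The members past this size were Atp5l (higher) and Cox7a1 and Atp5sl (lower). Although few passed 1.5-fold, the counting intervals of 29 members lay above 0 and those of 36 below 0, so that read sampling was smaller than most of the differences. The shares over all genes were 28.3% and 28.7%. Such intervals narrow with depth, and of the 1179 highly expressed genes 640 had theirs above 0 and 396 below 0. The spread among the subunits was wider than with exercise, with the middle 50% spanning 0.35 on the log2 scale, against 0.77 for highly expressed genes.

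Complex I was lower with cancer, with a median of −0.12, 25 of its 36 genes being lower. Among its 7 core subunits, the conserved proteins that carry the flavin and the iron-sulfur clusters or the quinone site, 6 were lower and the median was −0.23. The exception was Ndufv1, which holds the FMN and the NADH site, with 4623, 4701, 6316 and 6449 normalized reads, both cancer libraries lying above both normal ones. Its log2 fold change was 0.45 (0.39 to 0.51). Of the 29 accessory subunits, 19 were lower, led by Ndufs4, an accessory subunit whose loss causes complex I deficiency, with 3845, 3550, 2624 and 4234 normalized reads. It was lowest in E(−)T(+), by −0.55 (−0.62 to −0.48). The accessory subunit Ndufa2 went the other way, with 11221, 11852, 15499 and 19362 normalized reads and a log2 fold change of 0.47 (0.43 to 0.50).

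In complex II, Sdhd and Sdhc, the membrane anchors, were lower by −0.58 (−0.82 to −0.34) and −0.36 (−0.44 to −0.29). The flavoprotein Sdha lay at −0.05 (−0.10 to 0.01) and Sdhb at 0.13 (0.10 to 0.16). In complex III the genes that carry the electron, Cyc1 (cytochrome c1) and Uqcrfs1 (the Rieske iron-sulfur protein), were both lower in E(−)T(+). Cyc1 had 3797, 3739, 2615 and 3750 normalized reads, a log2 fold change of −0.54 (−0.61 to −0.47), and only the cancer control library stood below the rest. Uqcrfs1 had 6845, 6769, 4806 and 5513, a log2 fold change of −0.51 (−0.56 to −0.46), with both cancer libraries below both normal ones. The small accessory subunit Uqcr10 was higher, with 7956, 8392, 11795 and 13279, a log2 fold change of 0.57 (0.53 to 0.61).

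Complexes IV and V had medians slightly above 0, at 0.06 and 0.10, which turned to −0.10 and −0.05 when the reads were scaled to library totals. Of the 17 complex IV genes 11 were higher and of the 15 complex V genes 9. In complex V, Atp5l, the g subunit of the membrane part, had 4392, 4494, 7160 and 7331 normalized reads, both cancer libraries lying above both normal ones. Its log2 fold change was 0.70 (0.65 to 0.76), and a long antisense gene overlaps its locus, so reads of the pair could not be told apart if strand was not used. Atp5g1, 1 of 3 genes for the same c ring protein, was lower by −0.32 (−0.38 to −0.26) while Atp5g2 lay at 0.26. In complex IV, Cox4i1 had 13843, 15902, 20017 and 20954 normalized reads, a log2 fold change of 0.53 (0.50 to 0.56).

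**Figure D2:**
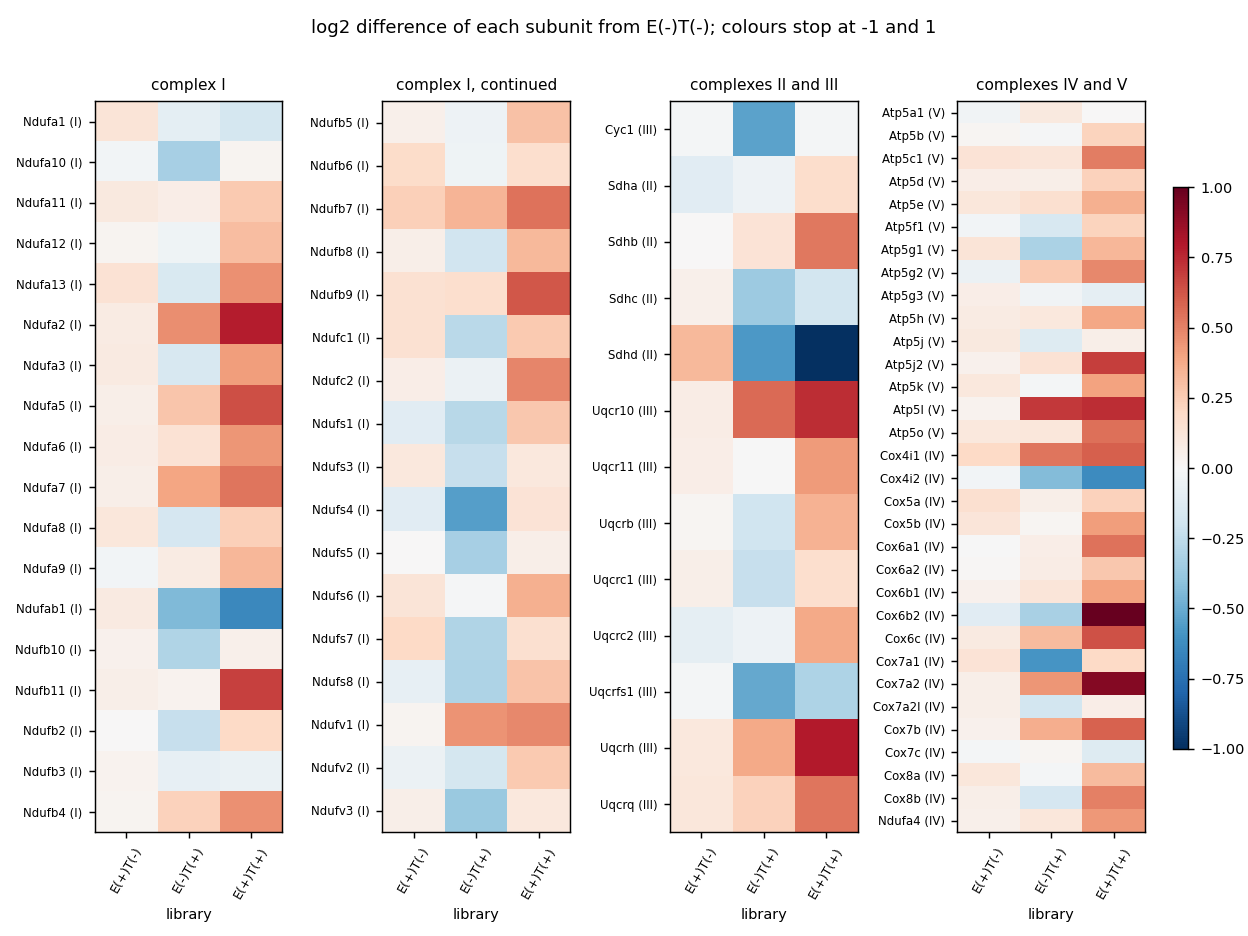
Log2 difference of 80 of the 81 subunits from the E(−)T(−) library, in columns for E(+)T(−), E(−)T(+) and E(+)T(+), with red for higher and blue for lower values and the complex in brackets. The E(+)T(−) column is pale; Cox7a1, Sdhd, Ndufs4, Cyc1 and Uqcrfs1 are blue and Atp5l, Uqcr10 and Cox4i1 red in E(−)T(+); most of the E(+)T(+) column is red on this scaling and would turn blue under library totals.

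The heart isoform Cox7a1 and the widely expressed isoform Cox7a2 encode alternative forms of the same complex IV subunit, and they moved apart with cancer. Cox7a1 had 12659, 13920, 8404 and 14511 normalized reads, and E(−)T(+) lay below the other libraries, by −0.59 (−0.63 to −0.55) against E(−)T(−). Cox7a2 had 13335, 13853, 18153 and 25162, with both cancer libraries above both normal ones and a log2 fold change of 0.45 (0.41 to 0.48). Of the reads of the pair, Cox7a2 took 51.3% (exact 95% interval 50.6 to 52.0) in the normal control, 49.9% (49.3 to 50.4) in normal exercise, 68.4% (67.8 to 68.9) in the cancer control and 63.4% (62.9 to 63.9) in cancer exercise. A share within a library does not depend on the scaling, and the intervals of the cancer libraries did not meet those of the normal ones.

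Of the other isoform pairs, some also had shares that set both cancer libraries apart from both normal ones and some did not. Cox6a1, the widely expressed partner of Cox6a2, took 3.55%, 3.52% and 3.54% of its pair in the first 3 libraries and 4.26% (4.10 to 4.42) in E(+)T(+). Cox8a, the partner of the muscle-type Cox8b, took 21.8%, 22.5%, 23.6% and 19.7%. Cox4i2, known as an isoform of the lung, took 0.552%, 0.470%, 0.281% and 0.234% of the reads of Cox4i2 and Cox4i1, on 67, 83, 64 and 45 reads, with both cancer intervals below both normal ones. Of the reads of Atp5g1 and Atp5g3, Atp5g1 took 12.1%, 12.6%, 10.2% and 15.6%, lowest in E(−)T(+) and highest in E(+)T(+). Of the reads of Atp5g2 and Atp5g3, Atp5g2 took 4.28% (4.07 to 4.50), 3.94% (3.76 to 4.12), 5.21% (5.01 to 5.42) and 6.22% (5.97 to 6.48), again with the cancer intervals away from the normal ones.

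**Figure D3:**
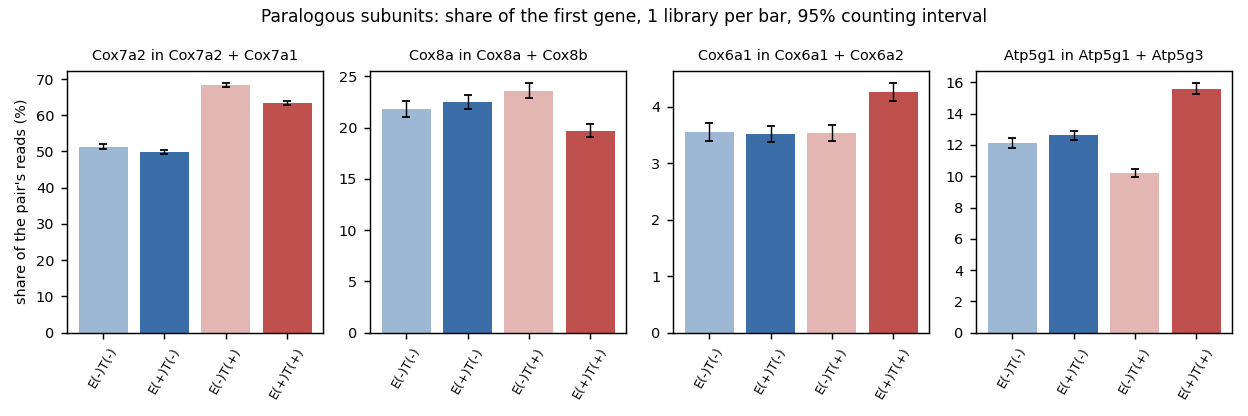
Share of a pair's reads (%) taken by the gene named first, for 4 pairs of paralogous subunits, with 1 bar per library and exact 95% counting intervals. Cox7a2 rises from 51.3% and 49.9% in the normal libraries to 68.4% and 63.4% in the cancer libraries, while the other pairs shift by a few percentage points.

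Genes that build or regulate the chain were mostly lower with cancer. The list of 56 assembly factors was drawn broadly. Most of them insert cofactors or join subunits but are not part of the finished complexes. In E(−)T(+) vs. E(−)T(−), 44 of the 56 were lower and 12 higher, with a median of −0.48. At least 1.5-fold lower were 26, beside the 23.1% of all genes. Uqcc1, an assembly factor of complex III, had 717, 869, 250 and 413 reads, a log2 fold change of −1.89. Bcs1l, which inserts the Rieske protein, had 141, 265, 61 and 113 reads, a log2 fold change of −1.57. Cmc2 of complex IV changed by −1.44, Timmdc1 of complex I by −1.41, Sdhaf4 of complex II by −1.05 and Atpaf2 of complex V by −1.12, while Pet117 of complex IV was higher by 1.06 on 19 and 53 reads. The assembly factors were read at lower depth than most subunits.

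Of 16 transcriptional regulators, 12 were lower and 4 higher with cancer, with a median of −0.58. The 4 higher were Nrf1 at 0.40, Gabpa at 0.23, Esrrb at 0.21 and Esrra at 0.02. The counting interval of none of them lay above 0. Gabpb1 lay at −0.02 and Esrrg at −0.78. At least 1.5-fold lower were 8, beside 23.1% of all genes. Ppargc1a, which encodes PGC-1α, had 813, 948, 554 and 1077 reads, a log2 fold change of −0.93, and was lowest in E(−)T(+). Ppara, a nuclear receptor that acts on fatty acid oxidation genes, changed by −1.48, Ppargc1b by −1.26 and Perm1, a muscle partner of PGC-1α, by −1.04. The 17 genes of the citric acid cycle had a median of −0.34, 14 of them lower, with Dlst at −0.73, Suclg1 at −0.62 and Cs, citrate synthase, at −0.61. Cycs, cytochrome c, was lower by −0.32.

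Markers of other cells moved in this comparison too. All 5 fibroblast markers were higher (median 1.44), as were 5 of 6 macrophage and neutrophil markers (median 1.76), while all 6 white adipocyte markers kept were lower (median −3.08), with Plin1 at 0 reads in E(−)T(+). Summed normalized reads ran from 24638 in E(−)T(−) to 53880 in E(−)T(+) for fibroblasts, from 746 to 4550 for macrophages and neutrophils, and from 22098 to 13540 for white adipocytes. Of 5 endothelial markers 4 were lower (median −0.61), with Kdr at −1.89 and Cdh5 at −1.26, while Pecam1 lay at 0.55, and Fabp4 stands on this list and on that of white adipocytes. The 12 cardiomyocyte markers had a median of 0.06 but went both ways, 6 being higher and 6 lower, from −0.85 for Actc1 to 0.84 for Ryr2. At least 1.5-fold, 3 of the markers were higher and 2 lower, beside 22.6% and 23.1% of all genes. The part of these cells in the differences of the subunits was not tested.

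For exercise with cancer, E(+)T(+) vs. E(−)T(+), 75 of 83 members were higher and 8 lower, with a median of 0.35. When reads were scaled to library totals that include the globin genes, 8 were higher and 75 lower, with a median of −0.24. Without the globin genes in the totals, 73 were higher and 10 lower, with a median of 0.32. At least 1.5-fold, 8 were higher and 1 was lower, against 16.1% of all genes higher and 18.3% lower by that size, 34.4% in either direction, and 15.5% of highly expressed genes. Scaling to library totals moved the median of all genes by itself to −0.59. Relative to the median of all genes, the members lay at 0.36 and 75 of 83 were above it, values that a scaling hardly alters because it moves all genes alike. With the deposited values, 49.0% of all genes and 57.6% of highly expressed genes were higher, and the latter had a median of 0.08.

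Under the deposited normalization the rise extended over all complexes, with medians of 0.36 for complex I, 0.20 for complex II, 0.41 for complex III, 0.32 for complex IV and 0.24 for complex V, and each of these was below 0 with library totals. All 9 genes of complex III and 34 of 36 of complex I were higher. The 7 core subunits of complex I were all higher, with a median of 0.44, Ndufv1 being lowest at 0.03 and Ndufs8 highest at 0.59. After Cox6b2, the largest rises were those of Cox7a1, Ndufs4 and Cox8b. Cox7a1 was higher by 0.79 (0.75 to 0.83), Ndufs4 by 0.69 (0.62 to 0.76), the muscle-type Cox8b by 0.67 (0.63 to 0.71) and the c ring gene Atp5g1 by 0.65 (0.59 to 0.70). All 4 of these genes had their lowest value in E(−)T(+), a library that this comparison shares with the preceding one.

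Of the subunits described above as higher with cancer, Atp5l, Ndufv1, Cox4i1 and Uqcr10 differed by less than 0.20 in this comparison. It shares the E(−)T(+) library with E(−)T(+) vs. E(−)T(−). Atp5l lay at 0.03 (−0.01 to 0.08), Ndufv1 at 0.03 (−0.02 to 0.08), Cox4i1 at 0.07 (0.04 to 0.09) and Uqcr10 at 0.17 (0.14 to 0.21). Cox7a2 was higher by 0.47 (0.44 to 0.50), but Cox7a2 and the subunits just listed lay below 0 with library totals. The assembly factors were higher in 52 of 56 cases with a median of 0.33, 17 of them at least 1.5-fold, against 16.1% of all genes higher by that size, and the regulators in 15 of 16 with a median of 0.54, Ppargc1a by 1.27 and Polrmt, the mitochondrial RNA polymerase, by 1.30. The citric acid cycle had a median of 0.36 and 15 of 17 higher. With library totals the medians of these lists were −0.26, −0.03 and −0.23.

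Sdhd had the largest fall of the 7 subunits that were lower in E(+)T(+) vs. E(−)T(+), the other 6 lying between −0.20 and −0.06. It had 354, 443, 237 and 148 normalized reads, from 309, 490, 269 and 135 reads, and it was lower by −0.68 (−0.99 to −0.38) in E(+)T(+) vs. E(−)T(+) and by −1.58 (−1.87 to −1.31) in E(+)T(+) vs. E(+)T(−). The latter is 2.99-fold lower and was the largest fall of any member in any comparison. As a share of the reads of the 4 complex II genes, which no scaling alters, Sdhd took 1.38% (1.23 to 1.55) in the normal control, 1.74% (1.59 to 1.90) in normal exercise, 0.908% (0.803 to 1.02) in the cancer control and 0.449% (0.377 to 0.531) in cancer exercise. Sdhc, the other anchor, took 13.3%, 13.8%, 10.1% and 9.09%, and Sdhb 64.4%, 65.0%, 69.2% and 72.1%. Both anchors therefore had smaller shares in the cancer libraries and Sdhb larger ones.

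Cox6b2, known as the testis isoform of subunit 6b, went the opposite way on few reads. It had 22, 26, 23 and 118 reads, so that only E(+)T(+) stood apart, by 2.62 (2.02 to 3.38) against E(−)T(+), which is 6.14-fold, and by 2.41 (1.83 to 3.13) against E(+)T(−). Its share of the reads of Cox6b2 and Cox6b1 was 0.204%, 0.185%, 0.151% and 0.785% (0.650 to 0.940), so that the common Cox6b1 made up nearly all of the pair in each library.

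**Figure D4:**
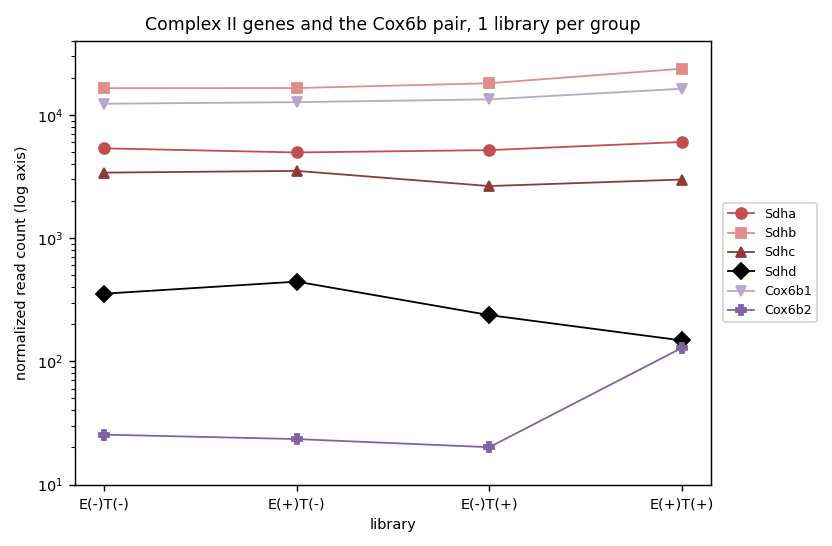
Normalized read counts, on a log axis, of the 4 complex II genes and of Cox6b1 and Cox6b2 in the 4 libraries, with 1 point per library and lines that only join the points of a gene. Sdhd goes from 354 in E(−)T(−) to 148 in E(+)T(+) while Sdhb stays between 16486 and 23706, and Cox6b2 stays near 20 to 25 except for 129 in E(+)T(+).

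Markers of other cells also differed in the E(+)T(+) library. All 10 erythroid markers were higher than in E(−)T(+), with a median of 3.08, and their summed normalized reads were 645720 to 663832 in the other libraries and 4722599 in E(+)T(+). These sums include the Hbb pairs whose reads may be counted under both names. Of the 7 brown adipocyte markers, 6 were higher, and Ucp1, which defines this cell type, had 0, 0, 0 and 814 reads, while Elovl3 had 2, 1, 0 and 47. Ucp1 and Elovl3 passed the minimum mean only through E(+)T(+). Dio2 was lower, by −1.09, on 26, 128, 359 and 136 reads. Ppara, Cpt1b, Cidea and Cox8b had at least 258 reads in every library. Cox8b is a member that also stands on that list. All 6 white adipocyte markers were higher (median 2.76), and all 5 fibroblast markers lower (median −2.50), while 4 of 5 endothelial markers were higher (median 0.45). The 12 cardiomyocyte markers had a median of 0.11, and relative to that median, an alternative added after seeing the data, the members lay at 0.24. The part of blood, fat or other cells in the values of the subunits was not tested.

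For cancer with exercise, E(+)T(+) vs. E(+)T(−), 69 members were higher and 13 lower with a median of 0.28, against 2 higher and 81 lower with library totals. Without the globin genes in the totals, 54 were higher and 29 lower, with a median of 0.11. At least 1.5-fold, 9 were higher and 3 lower, against 19.1% of all genes higher and 21.1% lower by that size, 40.2% in either direction, and 22.8% of highly expressed genes. Relative to the median of all genes the members lay at 0.30 and 70 of 83 were above it. Of all genes 48.8% were higher, and of highly expressed genes 68.7%, with a median of 0.20.

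The subunits highest in this comparison after Cox6b2 were Cox7a2 at 0.86 (0.83 to 0.89), Ndufa2 at 0.71 (0.68 to 0.74), Atp5l at 0.71 (0.65 to 0.76), Uqcrh, the hinge protein of complex III, at 0.69 (0.66 to 0.72) and Uqcr10 at 0.66 (0.62 to 0.70), of which Ndufa2, Atp5l, Uqcrh and Uqcr10 turned slightly below 0 with library totals. The lowest after Sdhd were Ndufab1, the mitochondrial acyl carrier protein, at −0.73 (−0.96 to −0.52) and Cox4i2 at −0.60 (−1.17 to −0.07). Ndufab1 had 438, 466, 323 and 280 normalized reads, with both cancer libraries below both normal ones. Unlike most subunits, the assembly factors had a median of −0.04 here, 25 being higher and 31 lower, and the citric acid cycle a median of 0.06.

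The 2 cancer comparisons share no library, and their log2 fold changes over the 81 subunits had a Spearman correlation of 0.68 and a Pearson correlation of 0.48, against 0.63 and 0.62 over the 1179 highly expressed genes. The sign was the same in 46 of the 81 subunits. This is a smaller share than the 880 of 1179 highly expressed genes and the 9384 of all 13725 genes. The 2 exercise comparisons, which also share no library, had −0.06 and −0.29 over the subunits. These are descriptions across genes, which are not independent replicates and share the depth of each library. Atp5l, Uqcr10, Cox7a2, Ndufa2 and Ndufv1 were higher with cancer in both states, by 0.45 to 0.86, all but Cox7a2 turning below 0 in the exercised state with library totals, and Sdhd, Uqcrfs1, Sdhc and Ndufab1 lower, by −0.23 to −1.58. Cox7a1, Ndufs4 and Cyc1, lower with cancer without exercise, lay at 0.06, 0.25 and 0.00 in E(+)T(+) vs. E(+)T(−) with the deposited values but at −0.66, −0.47 and −0.72 with library totals, and the difference between the states was not tested.

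**Figure D5:**
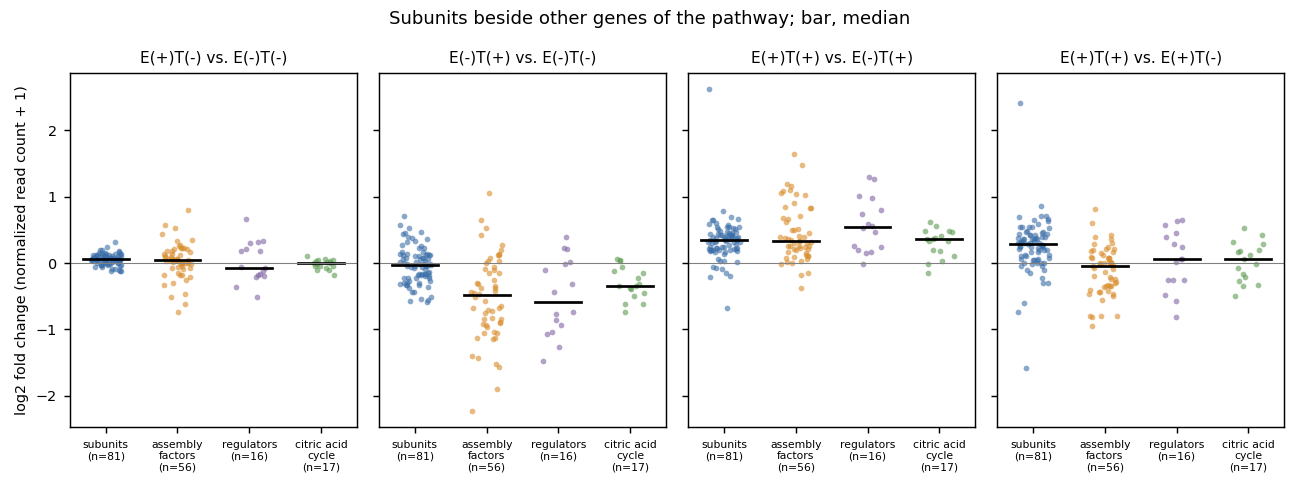
Log2 fold changes of the 81 subunits, 56 assembly factors, 16 regulators and 17 citric acid cycle genes in the 4 comparisons, with 1 point per gene and a bar at each median. In E(−)T(+) vs. E(−)T(−) the medians are −0.04 for the subunits and −0.48, −0.58 and −0.34 for the other lists; in E(+)T(+) vs. E(−)T(+) all medians lie above 0 with the deposited values and fall below 0 under library totals.

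Subunit transcripts are short, with a median annotated length of 659 bases against 1404 for highly expressed genes. The fold changes had a Spearman correlation with transcript length of −0.27, −0.24, −0.11 and −0.26 over the 81 subunits in the 4 comparisons, and of −0.16, −0.16, −0.06 and −0.24 over 1127 highly expressed genes. In E(−)T(+) vs. E(−)T(−), the 40 shorter subunit genes had a median of 0.02 and the 41 longer ones −0.13. The part of transcript length in the values was not tested. Several subunits, Cox4i1, Cox6a2 and Cox6c among them, overlap other annotated genes, and processed pseudogenes near-identical to a subunit could share its reads, so their levels are uncertain to that extent.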

How the data were processed

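Heart mRNA-seq data of 4 groups of mice, with 1 library each, were used. The authors made QuantSeq 3′ libraries, aligned the reads to mm10 with Bowtie2, took read counts for each gene from bedtools, and applied edgeR's quantile normalization, per the labels and methods. What the authors deposited are log2 values of the normalized read count plus a pseudocount of 1, and no other processing was given in the sources used here.

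The deposited log2 values were returned by quantile-adjusted negative binomial counts with a common dispersion of 0.149 and a largest error of 0.000718, which gave whole reads for each gene and library. The method was tested on simulated data. Totals ran from 6595412 to 11545934 reads. Of 23282 entries listed, genes with a mean of at least 4 were kept, and on repeated symbols the entry with the highest mean.

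Fold changes are differences of deposited values. Their 95% intervals (Clopper-Pearson) use the recovered reads of both libraries and the fitted library sizes, and PCR copies are not independent molecules. Members were counted past 1.5-fold and 2-fold beside all genes. No test of a condition was made. Alternatives were library totals, totals without globin genes or without genes over 1% of a library, median-of-ratios size factors, a minimum of 16 or none, and a pseudocount of 4. An alternative relative to the cardiomyocyte markers was added after seeing the data.

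Genes named are the Sdh genes, isoform sets, in each comparison the 4 members with the largest rise and fall, in each complex the 2 highest and those at the ends of a range, members past 2-fold, and in other lists genes past 2-fold or with the largest changes. Other members named (Ndufv1, Ndufs8, Ndufa1, Ndufv2) were chosen after their values were seen. Of the subunits, 1 was left out of the heatmap and is not reported here by name. The members and lists were chosen with earlier results of these data known. The assignment to complexes was made from general knowledge, with Ndufa4 placed in complex IV. Gene symbols, transcript lengths and promoters came from GENCODE and RefSeq annotation of GRCm38. Figures were drawn with matplotlib 3.10.9 and values computed with pandas 2.3.3, scipy 1.17.1 and numpy 2.4.6 under Python 3.11.15.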

Additional observations from a re-analysis of the deposited data

Results flagged for a closer look

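For 9 members, values moved in opposite directions with exercise in the normal and in the cancer hearts, with both counting intervals away from 0. These are 10.8% of the 83 members, against 8.10% of all genes and 23.2% of highly expressed genes by the same rule. The differences of the log2 fold changes, cancer minus normal, were 0.81 for Ndufs4, 0.68 for Ndufs8, 0.66 for Ndufs1, 0.52 for Uqcrc2, 0.50 for Ndufv2 and 0.33 for Sdha, each slightly lower with exercise without cancer and higher with it. They were −1.003 for Sdhd, −0.21 for Ndufa1 and −0.12 for Atp5g3, each slightly higher without cancer and lower with it. With 1 library per group the differences were not tested. Library totals lower all exercise values with cancer alike. Under them Ndufs1, Uqcrc2, Ndufv2 and Sdha turn below 0, while Ndufs4 and Ndufs8 stay above 0 and Sdhd, Ndufa1 and Atp5g3 below it.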

How the results depend on the processing

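No paired analysis was possible because each group has 1 library. The values depend most on the scaling of the E(+)T(+) library. With library totals, the median of the members was −0.20 in E(−)T(+) vs. E(−)T(−) with 8 members past 1.5-fold, −0.24 in E(+)T(+) vs. E(−)T(+) and −0.44 in E(+)T(+) vs. E(+)T(−) with 28 past 1.5-fold. Without globin genes in the totals they were −0.21 with 8, and 0.11 with 6 in E(+)T(+) vs. E(+)T(−). Without genes over 1% of a library they were −0.19 with 8, 0.28 with 5 and 0.11 with 6. Relative to the cardiomyocyte markers they were −0.10 with 6, 0.24 with 3 and 0.0825 with 6. Without a minimum, 2 members passed 1.5-fold in E(+)T(−) vs. E(−)T(−). Library totals by themselves moved the median of all genes to −0.73 in E(+)T(+) vs. E(+)T(−). The shares of all genes past 1.5-fold under these alternatives are not given, so these counts are not read as results about the members.

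By complex, library totals gave −0.097 (IV) and −0.0522 (V) in E(−)T(+) vs. E(−)T(−). They gave −0.23 (I), −0.39 (II), −0.17 (III), −0.27 (IV) and −0.35 (V) in E(+)T(+) vs. E(−)T(+), and −0.46 (I), −0.36 (III), −0.36 (IV) and −0.47 (V) in E(+)T(+) vs. E(+)T(−). In the last, Atp5j2 lay at −0.0737, Atp5l at −0.0134, Ndufa2 at −0.0116, Ndufa5 at −0.13, Uqcr10 at −0.0575 and Uqcrh at −0.0267. In E(−)T(+) vs. E(−)T(−), complexes IV and V were −0.11 and −0.0664 without globin genes and −0.0950 and −0.0504 without genes over 1%, and complex IV was −0.0045 relative to the cardiomyocyte markers. These shifts follow from the scaling itself, which moves all genes alike. Of the other values, 42 main values and 608 single values moved by less than their error or 1.5 times, while 350 single values moved by more, 334 of them under totals of one kind or another. The pseudocount of 4, the minimum of 16 and the size factors moved no main value beyond these limits. Depth limits Cox6b2 and Cox4i2, with at most 118 reads in a library.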
